A study of Homo sapiens with 4 samples.

Results

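The replication-dependent histone genes are the short, mostly clustered genes that supply the cell with H1, H2A, H2B, H3 and H4 during DNA synthesis. They were taken by symbol from GENCODE release 44 lifted to hg19, as the protein-coding genes H1-1 to H1-6 and those whose symbols begin with H2AC, H2BC, H3C or H4C and go on with a number. This gave 65 of 20162 protein-coding genes, with 6 genes for the linker histone H1, 16 for H2A, 17 for H2B, 13 for H3 and 13 for H4. Of them 51 lie on chr6, 12 on chr1, and H4C16 and H2BC12L lie alone on chr12 and chr21.

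HEK293 cells, an established line from human embryonic kidney, were analyzed by MBD-seq in 4 conditions with 1 library each. This assay enriches sonicated DNA by its binding to MBD2, a methyl-CpG binding protein, and regions that carry many methylated CpGs give many sequenced fragments. The conditions were untreated cells and cells with wild type, K844E or R887E Ab-3A3L, which is a fusion of DNMT3A and DNMT3L joined to an antibody fragment, scFv-GCN4, that binds the SunTag. All treated cells also received a catalytically dead Cas9 with 10 SunTag repeats and the ISG15 sgRNA by transient transfection, and were sorted by FACS after 3 days. The values below come from the 12864 new peaks listed for the wild type library in comparison with untreated cells. The other libraries were not analysed here, so no replicate error and no test of a difference between conditions is available, and the binomial intervals given cover counting error only. A promoter without a new peak may have been unmethylated, or methylated already in untreated cells, or covered by too few reads, and the list does not tell these apart.

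Replication-dependent histone genes have no introns and their mRNAs end in a short stem-loop in place of a poly(A) tail, which the stem-loop binding protein SLBP recognises. Core histones H2A, H2B, H3 and H4 form the nucleosome, whereas H1 binds the linker DNA between nucleosomes. H2A and H2B genes often stand head to head, so that both are transcribed outward from a shared promoter.

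The label of the group was checked on the gene models and the sequence. All 65 genes had a single exon. A stem-loop of 16 bases was found within 150 bp after the coding sequence in 64 of them, at 26 to 71 bp from its end, and took 10 forms. H2BC12L on chr21 was the gene without it. The commonest form stood in 38 genes and is shown for H1-4 (chr6:26157323-26157338, hg19, plus strand), and a form found in 8 genes is shown for H4C4 (chr6:26188943-26188958, hg19, minus strand), with the pairing stem in capitals.
H1-4 stem-loop: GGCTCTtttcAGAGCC
H4C4 stem-loop: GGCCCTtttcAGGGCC
The 2 printed forms differ in the stem and keep the same loop.

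A new peak overlapped the promoter, taken as the canonical start site with 1000 bp to each side, in 29 of the 65 histone genes (44.6%, exact 95% binomial interval 32.3 to 57.5%). Over all protein-coding promoters the share was 41.6%, which lies inside that interval, so the histone genes as a group were not set apart by this share. The 29 promoters were covered by 29 distinct peaks, because some promoters held several peaks and 16 of the peaks reached 2 or more histone promoters. Neighbouring promoters are therefore not independent. Counted as stretches of overlapping windows, 17 of 44 stretches held a new peak. With the histone genes listed under older symbols, HIST2H2AA3 with a new peak and HIST1H4B without, the count was 30 of 67. The count depended on the strength asked of a peak. With a −log10 q of at least 10, 18 histone promoters were left, beside 24.6% of all promoters, and with at least the median fold of the list 22 were left, beside 25.6%. With the 1000 bp upstream of the start alone, 21 histone promoters had a peak, beside 32.4% of all promoters.

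By type, H2A promoters carried a new peak most often and H4 promoters least often. The counts were 11 of 16 for H2A (68.8%, 41.3 to 89.0%), 8 of 17 for H2B (47.1%, 23.0 to 72.2%), 5 of 13 for H3 (38.5%, 13.9 to 68.4%), 2 of 6 for H1 (33.3%, 4.33 to 77.7%) and 3 of 13 for H4 (23.1%, 5.04 to 53.8%). Over all protein-coding promoters the share was 41.6%, which lies inside each of these intervals. The intervals of all 5 types overlap each other and take promoters that share peaks as independent. A difference between the types was not tested, so no order of the types is drawn from these numbers of genes.

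Of the linker histone genes, H1-4 and H1-2 carried a new peak. The peak of H1-4 had a fold of 15.5 with 24 fragments at its summit, ran over 834 bp and covered 96.3% of the coding sequence. That of H1-2 had a fold of 7.45 with 11 fragments and covered 17.5% of the coding sequence. Both covered the start site, with the summit 37 bp inside the transcript. H1-1, H1-3, H1-5 and H1-6 had no new peak and held 49 to 78 CpGs in the 2001-bp window, against 99 for H1-4 and 78 for H1-2. H1-6 is the linker histone of the testis, and it had the fewest CpGs of the 6. The fold is the peak caller's ratio of fragments at the summit to a background rate, taken with 1 added to each. The fragment number was recovered from the deposited fold and p-value.

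In H2A the highest fold was that of H2AC25 with 18.3, the median that of H2AC4 with 10.6 and the lowest that of H2AC12 with 6.83. The fragments at the summit numbered 30, 16 and 10. H2AC1, H2AC8, H2AC13, H2AC14 and H2AC16 had no new peak. In H2B the range was the same, because H2BC26 with 18.3 and H2BC12 with 6.83 are the divergent partners of H2AC25 and H2AC12 and were reached by the same peaks, and the lower median was H2BC4 with 8.07. H2BC1, H2BC3, H2BC5, H2BC6, H2BC9, H2BC10, H2BC12L, H2BC13 and H2BC14 had no new peak. H2AC1 and H2BC1, the histone pair best known from the testis, stood at the start of the chr6 genes, 265201 bp or more from the nearest new peak.

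In H3, H3C15 had the highest fold with 15.5, H3C13 the median with 10.7 and H3C1 the lowest with 6.29. The 15.5 belongs to a peak that covers the start site of H2AC19 and overlaps no H3 coding sequence. The peak over the coding sequence of H3C15 had a fold of 13.6. H3C14 had a fold of 14.9 and H3C2 one of 9.93. H3C3, H3C4, H3C6, H3C7, H3C8, H3C10, H3C11 and H3C12, all of chr6, had no new peak. In H4 the folds were lower, with 7.96 for H4C15, 7.12 for H4C1 and 6.67 for H4C4. H4C3, H4C5, H4C7, H4C8, H4C9, H4C11, H4C12, H4C13, H4C14 and H4C16 had no new peak. The highest fold in H4 was thus below the median fold of H2A, H2B and H3. H4C15 and H4C1 had 18 fragments each at the summit, over background rates of 1.39 and 1.67, and H4C4 had 10 fragments. The genes named for the median, H2AC4, H2BC4 and H3C13, had 16, 12 and 19 fragments over rates of 0.611, 0.611 and 0.878. The part of the background rate in the lower H4 folds was not tested. Some folds in H2B and H3 also come from a peak on a neighbouring gene, as for H2BC18, H2BC26 and H3C15.

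**Figure D1:**
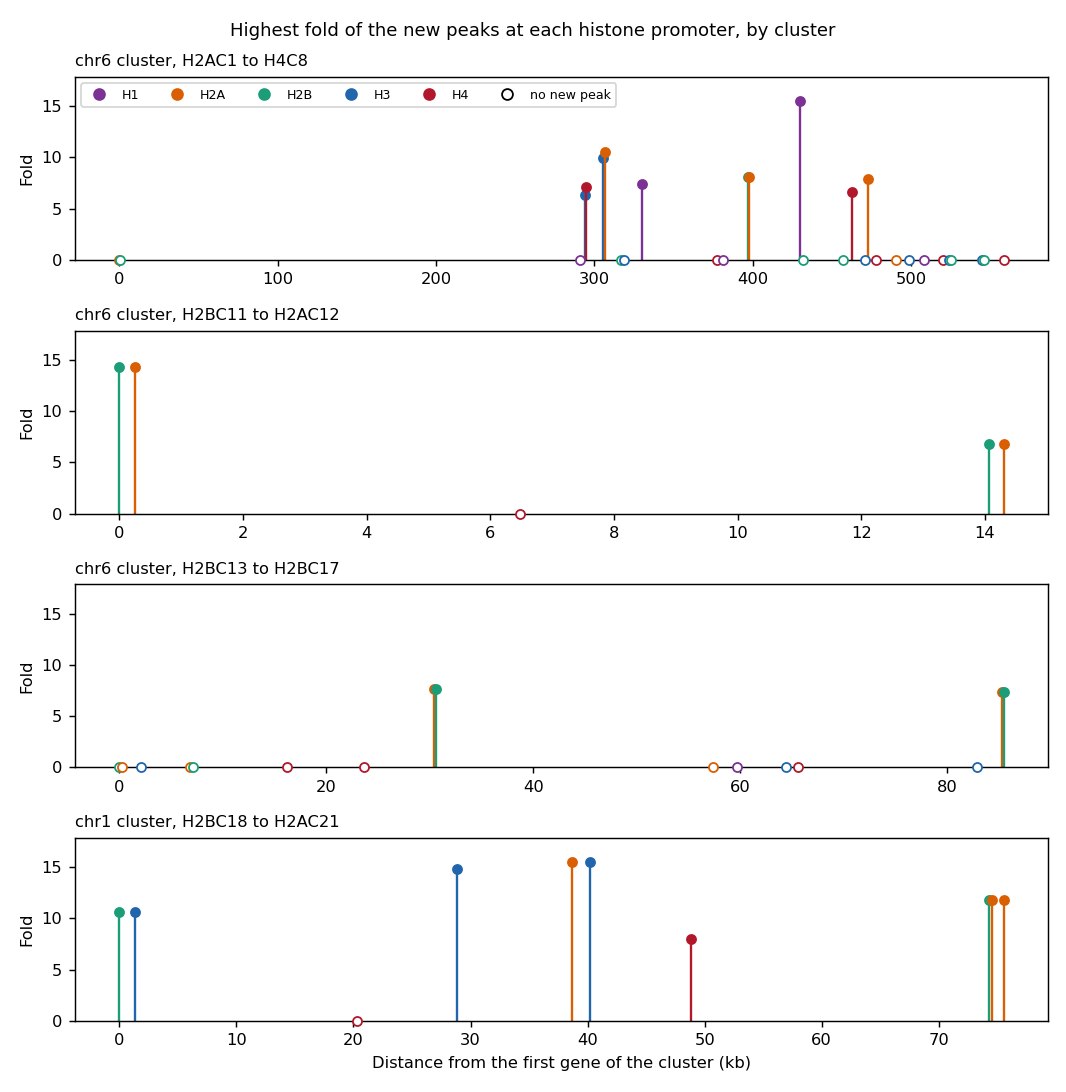
Highest fold of the new peaks at each histone promoter (vertical axis) against the distance from the leftmost gene of its cluster in kb (horizontal axis), for the 4 larger clusters, with filled points for promoters with a new peak and open points at 0 for those without. In the chr1 cluster H2BC18 to H2AC21, 9 of 10 promoters carried a peak, whereas in the largest chr6 cluster 10 of 30 did, in separate runs. Of all protein-coding promoters, 41.6% carried one.

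Genes were chained into a cluster while neighbours lay within 500 kb. On chr1, 11 of 12 histone promoters carried a new peak (91.7%, 61.5 to 99.8%), with a median fold of 11.8. On chr6, 18 of 51 did (35.3%, 22.4 to 49.9%), with a median fold of 7.67. The intervals do not overlap, but they take promoters that share peaks as independent. The share of 41.6% over all protein-coding promoters lay inside the chr6 interval and below the chr1 interval. Without promoters that hold stretches of read length found elsewhere in the genome, 3 of 3 were left on chr1 (29.2 to 100%), all sharing peaks, and 18 of 45 on chr6 (40.0%, 25.7 to 55.7%). These intervals overlap, and the 41.6% lies inside both. The chr1 promoters also held more CpGs, with a median of 132.5 per window against 88 on chr6, and more repeated sequence, as given below, and the part of either in the difference was not tested.

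In the larger chr1 cluster, H2BC18 to H2AC21, which spans 75590 bp, 9 of 10 promoters carried a new peak and H4C14 did not. The 7 genes from H3C14 to H2AC21 followed each other without a gap. H2AC25 and H2BC26, a divergent pair farther along chr1, both carried a peak. On chr6 the cluster H2BC11 to H2AC12 had 4 of 5, with H4C9 between its divergent pairs as the exception. The cluster H2AC1 to H4C8, which spans 558972 bp, had 10 of 30 and the cluster H2BC13 to H2BC17, which spans 85496 bp, had 4 of 16. The 41.6% of all protein-coding promoters lay inside the exact intervals of these chr6 clusters (28.4 to 99.5%, 17.3 to 52.8% and 7.27 to 52.4%). It lay below that of the larger chr1 cluster (55.5 to 99.7%). Among the genes taken by symbol from H2AC1 to H4C8, H3C1, H4C1, H3C2 and H2AC4 formed the longest run with peaks. HIST1H4B, a histone gene under an older symbol and without a peak, lies between H4C1 and H3C2 and breaks this run. The 10 genes from H4C5 to H4C8 over 80924 bp formed the longest run without. In the cluster H2BC13 to H2BC17, the 7 genes from H2BC13 to H4C12 over 23631 bp had none. Of the 8 other protein-coding genes between H2AC1 and H4C8, 1 had a new peak (12.5%, 0.316 to 52.7%), beside 41.6% of all protein-coding promoters. These 8 held a median of 21.5 CpGs per window, against 96 over all promoters. The gene with a peak was ENSG00000282988, which has the start site of H2AC7 and was reached by the same peak. SLC17A1 to SLC17A4, HFE, TRIM38 and HIST1H4B had none.

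**Figure D2:**
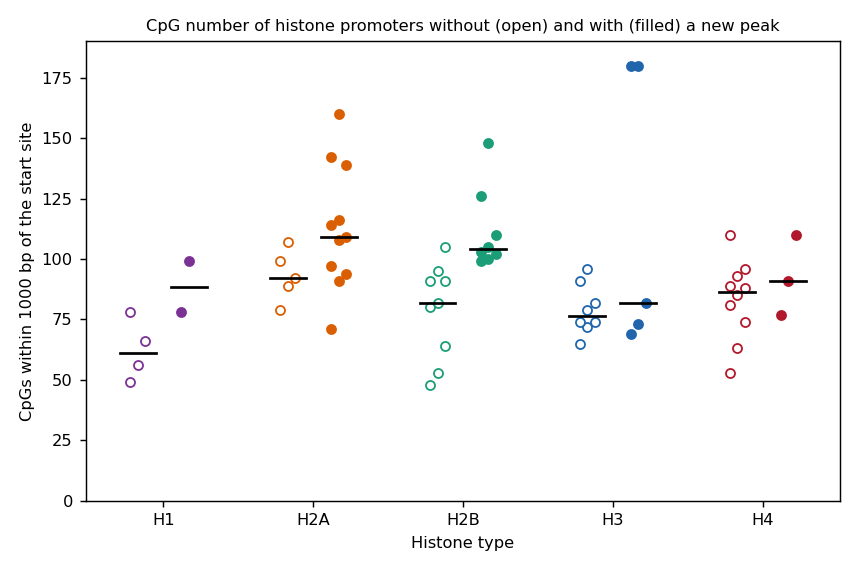
Number of CpGs within 1000 bp of the start site (vertical axis) for each histone promoter by type (horizontal axis), with open circles for promoters without and filled circles for promoters with a new peak and a line at the median. In H2B the promoters with a peak held 99 to 148 CpGs and those without 48 to 105, and these ranges overlap, as those of H2A, H3 and H4 do.

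CpG number went along with the presence of a new peak. Promoters with a peak held a median of 103 CpGs (69 to 180) and those without 81.5 (48 to 110). In H2A the medians were 109 with and 92 without, and in H2B 104 and 82. In H3 they were 82 and 76.5, and in H4 91 and 86.5. The ranges with and without a peak overlapped in each of these 4 types, for example with 71 to 160 and 79 to 107 CpGs in H2A. The histone genes were also compared with all promoters at like CpG number, in 10 classes. With 38 to 63 CpGs, 0 of 6 histone promoters had a peak (exact interval up to 45.9%), against 6.28% of all promoters. With 64 to 82 CpGs it was 6 of 20 (30.0%, 11.9 to 54.3%) against 24.0%, and with 83 to 96 CpGs 3 of 15 (20.0%, 4.33 to 48.1%) against 40.8%. With 97 to 110 CpGs it was 11 of 15 (73.3%, 44.9 to 92.2%) against 54.6%. All 9 histone promoters with more CpGs had a peak, where 65.1 to 78.6% of all promoters did. All of these but H2AC11 lie on chr1. Several share peaks or hold repeated sequence, so the 9 are not independent. Each background share lies inside the interval of the histone promoters of that class, but these intervals are wide. The histone shares lay below the background in some classes and above it in others. With CpGs counted over 500 bp on either side, the classes hold other promoters. The fifth class, then of 57 to 66 CpGs, had a peak in 7 of 15 histone promoters (46.7%), against 37.3% of all promoters. This stands in place of 20.0% against 40.8%.

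**Figure D3:**
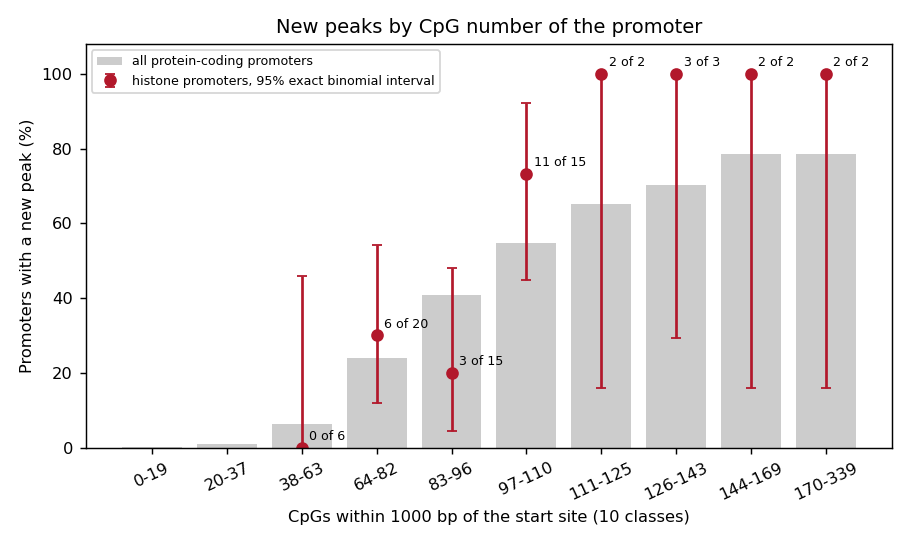
Share of promoters with a new peak in percent (vertical axis) in 10 classes of CpG number (horizontal axis), with grey bars for all protein-coding promoters and red points with exact 95% binomial intervals for histone promoters. Histone promoters with 83 to 96 CpGs had a peak in 3 of 15 and those with 97 to 110 CpGs in 11 of 15, with intervals that overlap.

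A CpG island overlapped 62 of the 65 promoters (95.4%) against 71.7% of all promoters. The promoters of H1-1, H1-3 and H1-6 had none. When an island had to reach 500 bp, 55% GC and a ratio of observed to expected CpGs of 0.65, 26 histone promoters were left (40.0%), fewer than the 58.5% of all promoters. These included all 12 on chr1 and 13 of 51 on chr6. Of the 26, 21 had a new peak (80.8%, against 64.7% of all promoters with such an island), and of the other 39, 8 had (20.5%, against 9.02%). H4C14, H4C16, H2BC5, H2BC13 and H2AC13 held such an island and had no new peak.

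The peaks at histone genes were narrow. Their median width was 340 bp (253 to 2077), and 21 of 29 (72.4%) were under 400 bp, against 27.9% of the 8628 peaks at protein-coding promoters, whose median width was 572 bp. The median fold was 8.07 in both sets, and the range at histone genes was 4.77 to 18.3. At the summit stood a median of 16 fragments (9 to 30), over a background rate of at most 2.78. The median CpG density was 8.64 per 100 bp in the peaks at histone genes and 10.6 in those at all promoters.

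**Figure D4:**
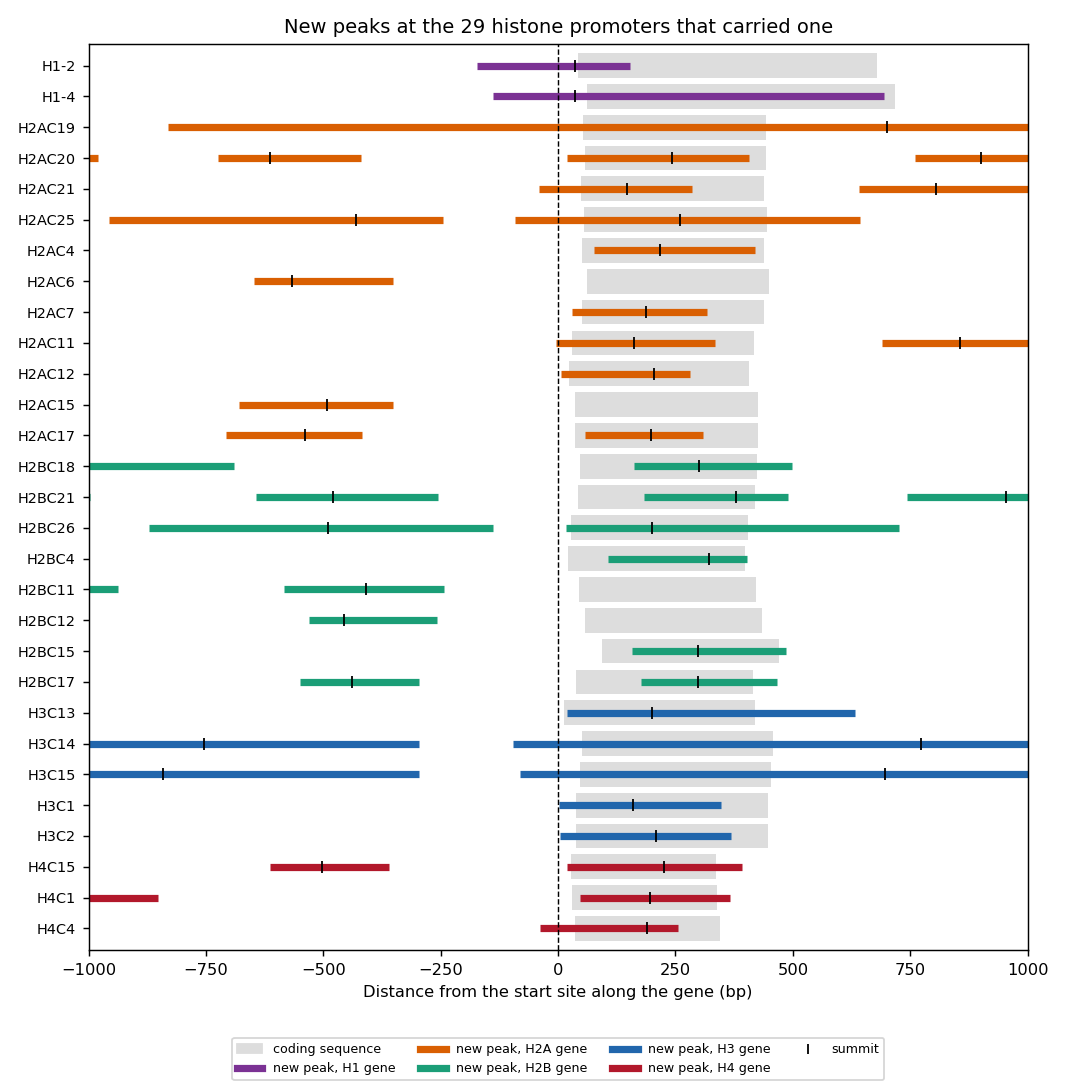
New peaks (coloured bars, by type) and their summits (ticks) along the gene within 1000 bp of the start site (horizontal axis, bp) for the 29 histone promoters with a peak, 1 row per gene, with the coding sequence in grey. Most bars lie over the coding sequence and leave the start site free, and no H2B start site is covered.

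New peaks lay on the coding sequence of the histone genes more than on the start site. The start site itself was inside a peak in 9 of the 29 promoters (31.0%, 15.3 to 50.8%), against 64.4% of the 8357 other promoters with a new peak. The 9 were H1-2, H1-4, H2AC11, H2AC19, H2AC21, H2AC25, H3C14, H3C15 and H4C4. Of the 8 H2B promoters with a peak, 0 had the start site covered (exact interval up to 36.9%). A peak overlapped the gene's own coding sequence in 25 of the 29 (86.2%), against 54.0% of the others. Of the 29 distinct peaks, 20 had the summit inside a histone coding sequence. Gene structure and peak width differ between these sets. Among the 182 other single-exon genes with a new peak, the coding sequence was overlapped in 80.2% and the start site covered in 56.0%. Among promoters whose peaks were all under 400 bp, the start site was covered in 4 of 21 histone genes (19.0%, 5.45 to 41.9%) and in 37.1% of 1987 others, which lies inside that interval.

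The profile of the 29 promoters had a gap just upstream of the start. The position 200 bp upstream was inside a new peak in 6.90% of them and in 40.5% of the others, and the position 200 bp downstream in 82.8% and 72.4%. At 500 bp upstream the share at histone genes was higher again, at 48.3%, which is where the coding sequence of a divergent partner lies in the H2A and H2B pairs.

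**Figure D5:**
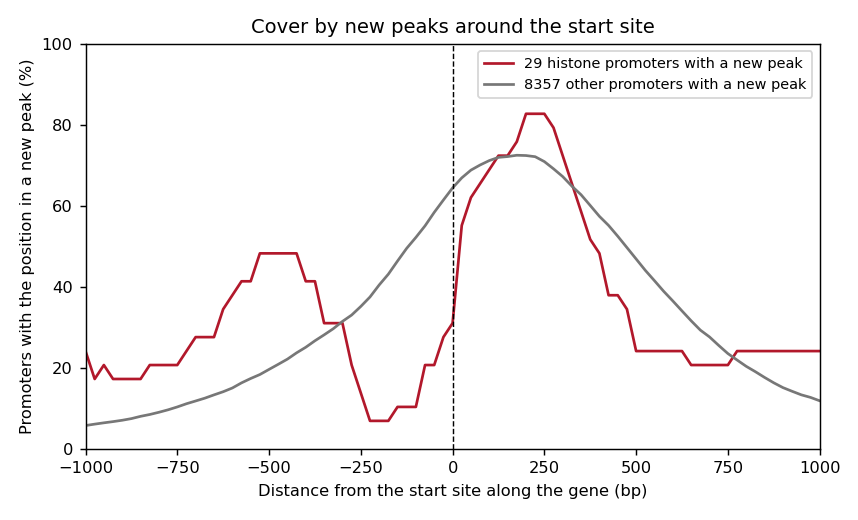
Share of promoters in which a position was inside a new peak, in percent (vertical axis), against the distance from the start site along the gene in bp (horizontal axis), for the 29 histone promoters (red) and the 8357 other promoters (grey) with a new peak. The red line falls to 6.90% at 200 bp upstream, where the grey line is at 40.5%, and reaches 82.8% at 200 bp downstream.

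The bases between head-to-head starts and the coding sequence can be compared directly. H2BC12 and H2AC12 start 251 bp apart, and the bases between their start sites (chr6:27114635-27114884, hg19, plus strand) are printed with the TATA box, the CCAAT box and the octamer, spelled out further on, in capitals on either strand. The beginning of the H2AC12 coding sequence, bases 1 to 200 (chr6:27114908-27115107, hg19, plus strand), and the 201 bases around the summit of the H2AC25 peak (chr1:228645215-228645415, hg19, minus strand), within its coding sequence, are printed with each CpG in capitals.
H2BC12-H2AC12 between starts: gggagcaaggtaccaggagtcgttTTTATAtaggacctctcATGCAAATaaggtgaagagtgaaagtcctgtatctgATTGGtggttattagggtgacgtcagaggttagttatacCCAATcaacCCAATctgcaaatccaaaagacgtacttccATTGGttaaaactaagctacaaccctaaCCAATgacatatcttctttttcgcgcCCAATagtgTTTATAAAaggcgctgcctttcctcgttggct
H2AC12 coding 1-200: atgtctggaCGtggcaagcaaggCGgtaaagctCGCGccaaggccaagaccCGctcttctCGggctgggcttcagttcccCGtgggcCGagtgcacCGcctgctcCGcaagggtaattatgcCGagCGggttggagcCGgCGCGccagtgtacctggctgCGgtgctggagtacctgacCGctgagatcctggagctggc
H2AC25 summit: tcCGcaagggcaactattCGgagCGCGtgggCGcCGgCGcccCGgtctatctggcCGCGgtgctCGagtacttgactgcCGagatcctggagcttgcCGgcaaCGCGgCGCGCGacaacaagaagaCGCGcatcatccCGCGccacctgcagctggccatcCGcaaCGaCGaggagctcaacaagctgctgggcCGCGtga
The 250 bases between the starts held 7 CpGs, the coding bases of H2AC12 17, and the bases around the H2AC25 summit 27. H2AC25 is of another pair and had the coding sequence densest in CpGs of all the histone genes. It held 12.3 CpGs per 100 bp of coding sequence, against 7.55 in H2AC12. The bases between the starts of H2BC12 and H2AC12 held 2.78 CpGs per 100 bp, and those between H2AC25 and H2BC26, which a peak did reach, 6.49, the highest of the 11 head-to-head pairs. The lowest was 1.94, between H3C7 and H2BC9. The peak at H2AC12 began 7 bp after its start site and ran over the coding sequence.

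The coding sequences were denser in CpGs than the 500 bp upstream of the start in 26 of the 29 genes with a peak and in 33 of the 36 without. With a peak the medians were 8.74 CpGs per 100 bp of coding sequence and 5.40 upstream, and without a peak 8.65 and 3.20. The upstream ranges were 1.00 to 10.2 and 0.200 to 7.60 and overlap. In the head-to-head H2A and H2B pairs, with starts 194 to 251 bp apart, these 500 bp reach into the coding sequence of the partner. The part of such bases in the upstream medians was not tested. Within the types, the median density of the coding sequence was higher with a peak than without in H1 (6.40 and 4.36), H2A (9.23 and 8.46), H2B (7.80 and 7.14) and H3 (10.8 and 9.31), and lower in H4 (8.74 and 9.22).

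Among head-to-head genes, 11 pairs had starts within 1000 bp. These were 10 pairs of H2A with H2B, 194 to 251 bp apart, and H3C7 with H2BC9, 979 bp apart. A new peak was found at 7 of the 11 pairs. The share among head-to-head pairs of other genes was not computed. Of single protein-coding promoters, 41.6% had a new peak. The 4 without were H2AC1/H2BC1, H3C7/H2BC9, H2BC13/H2AC13 and H2AC14/H2BC14. In 3 pairs, H2BC21/H2AC20, H2AC25/H2BC26 and H2AC17/H2BC17, both coding sequences were overlapped. In the other 4 it was the coding sequence of 1 partner, that of H2BC4, H2AC11, H2AC12 and H2BC15. H2AC6, H2BC11, H2BC12 and H2AC15 therefore counted as promoters with a new peak through a peak on the partner's side and not on their own coding sequence. A peak reached the bases between the starts in 2 of the 7 pairs, H2AC25/H2BC26 and H2BC11/H2AC11, where it covered the H2A start site.

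H2AC25 and H2BC26 held the peak of the highest fold among the histone genes. It spans chr1:228644932-228645666 and covers the whole coding sequence of H2AC25, with a fold of 18.3 that exceeded 98.8% of the peaks in the list. A peak of lower fold, 6.81, at chr1:228645820-228646531 covered the coding sequence of H2BC26. At H2BC11/H2AC11 the order was different. The peak in the H2AC11 coding sequence, chr6:27100818-27101157, had a fold of 8.69, and the peak of higher fold, 14.3, at chr6:27101512-27101868 lay beyond the end of the transcript. At H2BC21, H2AC20 and H2AC21, 4 separate peaks stood over less than 3 kb with folds of 6.21, 8.85, 10.6 and 11.8, the last 3 in the coding sequences of these genes.

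Histone genes of a type are near copies of each other, and copies with and without a new peak could be compared base by base. H3C2 with a peak and H3C4 without matched at 356 of 408 coding bases (87.3%), the highest match among the 40 H3 pairs of this kind. They held 39 and 37 CpGs, 30 of them at the same position. H4C1 with a peak and H4C9 without matched at 266 of 309 bases (86.1%) and held 27 and 32 CpGs, 24 at the same position. Coding bases 101 to 250 of the 4 genes are printed with each CpG in capitals, from chr6:26032039-26032188 (minus strand), chr6:26197229-26197378 (minus strand), chr6:26022007-26022156 (plus strand) and chr6:27107188-27107337 (plus strand) of hg19.
H3C2 coding 101-250: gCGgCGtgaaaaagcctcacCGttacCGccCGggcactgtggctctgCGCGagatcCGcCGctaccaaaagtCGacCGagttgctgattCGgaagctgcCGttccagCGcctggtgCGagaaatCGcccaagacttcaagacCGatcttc
H3C4 coding 101-250: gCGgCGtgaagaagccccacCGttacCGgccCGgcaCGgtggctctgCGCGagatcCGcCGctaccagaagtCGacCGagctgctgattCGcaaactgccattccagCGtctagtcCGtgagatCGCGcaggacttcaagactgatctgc
H4C1 coding 101-250: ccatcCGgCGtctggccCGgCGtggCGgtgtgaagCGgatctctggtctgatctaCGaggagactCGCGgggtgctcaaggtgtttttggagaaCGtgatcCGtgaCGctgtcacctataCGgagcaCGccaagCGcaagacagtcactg
H4C9 coding 101-250: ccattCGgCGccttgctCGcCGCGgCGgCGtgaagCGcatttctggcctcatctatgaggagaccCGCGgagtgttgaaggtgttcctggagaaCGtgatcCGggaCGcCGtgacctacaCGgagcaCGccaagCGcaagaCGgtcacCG
These stretches held 17 CpGs in each H3 gene, 15 in H4C1 and 19 in H4C9, so in the H4 pair the gene without a peak had the more CpGs here. Over the 2001-bp window H4C1 held 91 CpGs and H4C9 53, and H3C2 held 69 and H3C4 72. H2BC12 on chr6 and H2BC12L on chr21, which matched at 374 of 378 bases (98.9%), held 103 and 48 CpGs in the window. H2BC12 was reached by a peak on the side of H2AC12, and H2BC12L had none within 86869 bp.

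Some copies on chr1 are identical over the length of a read. Reads were 150 bp long, and 16 histone promoters held stretches of that length that occur elsewhere in the genome, 9 of them on chr1. In H4C14, H4C15, H3C14 and H3C15 all 1852 positions of the window were repeated, and in H2AC19 1612 were. In H2BC18 and H3C13 it was 352 and 277 positions, in H2AC25 and H2BC26 30 each, and in H2BC21, H2AC20 and H2AC21 0. The copies H3C14 and H3C15 had similar values, with folds of 14.9 and 13.6 (23 and 22 fragments) for the peak over the coding sequence and of 11.8 and 15.5 (18 and 24 fragments) for the peak upstream. H4C14 and H4C15, of identical coding sequence, did not, with 0 peaks at the former and 2 at the latter, of folds 7.96 and 7.25 with 18 and 13 fragments. From which copy these fragments came cannot be told apart. Without the promoters that hold repeated stretches, 21 of 49 histone promoters had a new peak, beside 41.6% of all protein-coding promoters, which were not filtered for repeats. Of the larger chr1 cluster H2BC21, H2AC20 and H2AC21 were then left, all with a peak, and all 18 chr6 promoters with a peak stayed.

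Known promoter elements were counted from 250 bp before to 50 bp after the start site on both strands. TATAAA, the TATA box, stood in 44 of the 65 histone promoters (67.7%) and in 9.78% of all promoters, and CCAAT in 55 (84.6%) and 35.9%. ATTTGCAT, the octamer bound by POU2F1, stood in 12 of 16 H2A and 13 of 17 H2B promoters, in 0 of the H1, H3 and H4 promoters, and in 1.58% of all promoters. AAACACAAA, the H1 box, stood in H1-2, H1-5 and H1-6, and in 0.436% of all promoters. A new peak was present in 21 of 44 histone promoters with TATAAA and 8 of 21 without, in 27 of 55 with CCAAT and 2 of 10 without, and in 14 of 25 with ATTTGCAT and 15 of 40 without. Of all protein-coding promoters, with or without these elements, 41.6% had a new peak. The share among all promoters with each element was not computed, and a link between element and peak was not tested.

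Histone genes outside this group, most of which are expressed independently of replication or in the germline, had a new peak in 9 of 25 promoters (36.0%, 18.0 to 57.5%), beside 41.6% of all protein-coding promoters. H3-3A, a gene of the replacement histone H3.3, had the highest fold with 13.6 and MACROH2A2 the lowest with 4.23. The summit of the MACROH2A2 peak lay 1089 bp downstream of the start, outside the promoter window. Of those without a peak, H2AZ1 held the most CpGs with 174, followed by H2AJ with 120 and H2AB1, H2AB2 and H2AB3 with 91 each. Genes for the transcription, mRNA processing, chaperoning and deposition of histones had a new peak in 26 of 42 promoters (61.9%, 45.6 to 76.4%), beside the same 41.6%, which lies below that interval, with a median of 120 CpGs per window against 96 over all promoters. An island by the stricter criteria was held by 38 of the 42 (90.5%), against 58.5% of all promoters. Of these 38, 26 had a new peak (68.4%), close to the 64.7% of all promoters with such an island. UBN1, a subunit of the HIRA chaperone complex, had the highest fold with 21.3 and SYMPK, a scaffold of the 3′ end processing machinery, the lowest with 3.02. SLBP had a fold of 9.70. TONSL, CPSF2, NASP, NPAT and SUPT16H had no new peak, with 182, 133, 127, 121 and 105 CpGs. NPAT is the coactivator of the histone genes, NASP a histone chaperone and SUPT16H a subunit of the FACT complex.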

How the data were processed

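Of 4 MBD-seq libraries of HEK293 cells, 1 per condition, the wild type library has the list of 12864 new peaks that was used. According to the methods, the authors used Bowtie2 with its defaults, on Galaxy, to map single reads of 150 bp to hg19. The submitters' processing notes also name FastQC, deepTools and MACS2. Versions and peak calling settings are not given in the sources used here. The deposited fold is the authors' ratio of summit fragments over background, taken here with 1 added to each. The deposited −log10 values belong to a p-value and to a q-value, and the authors' score was not used. The smallest deposited −log10 q was 2.00. The total depth of the library is not known from the list.

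Promoters were 1000 bp on either side of the canonical start site in GENCODE release 44 lifted to hg19, or of the longest transcript in 281 genes without a canonical tag. A promoter was counted when a peak overlapped it by 1 bp. The number of fragments k and the rate at each summit solve fold = (k + 1)/(rate + 1) together with a Poisson upper tail above k equal to the p-value, with a largest error of 0.000403 in −log10 p. CpG islands scored 17 for a CpG and -1 for any other base and met the UCSC criteria (over 200 bp, 50% GC, ratio 0.6). Repeated 150-mers were counted on both strands of the genome. Promoter and coding sequences were read from the GRCh37 genome, with H2BC7, H2BC8 and H4C6 not analysed here. Shares have exact 95% binomial intervals. With 1 library per condition no replicate test could be made, and none across genes was made.

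The genes and lists were chosen with earlier results of these data known. Named are, per type, the highest, the median and the lowest fold, and every gene without a peak, every gene outside chr6, and close copies. Of the other lists named are the highest and lowest fold and up to 5 without a peak, by CpG number, with SLBP, and the H3C2/H3C4, H4C1/H4C9 and H2BC12/H2BC12L pairs, added after their values were seen. Of the list of other histone genes, H2BU1 and H4-16 were not matched to the annotation, which left 25 of 27. Alternatives covered the window, the overlap, the peak threshold, the start site, the CpG window, the island criteria and repeated sequence. The steps were tested on simulated data. Scripts ran under Python 3.11.15, with matplotlib 3.10.9, numba 0.67.0, scipy 1.17.1, pandas 2.3.3 and numpy 2.4.6.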

Additional observations from a re-analysis of the deposited data

How the results depend on the processing

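Of 124 alternative values, 105 stayed within 1.5 times the main count or within the binomial interval of the main value, and 19 did not. Of these values 8 were chosen after seeing the data. Restricting the list to peaks with a −log10 q of at least 10 left 18 of the 65 histone promoters, with 1 for H1, 7 for H2A and 4 for H2B. By cluster it left 5 for H2AC1 to H4C8, 2 for H2BC11 to H2AC12 and 0 for H2BC13 to H2BC17, and among the other lists 4 other histone genes and 17 supply genes, while the share over all promoters fell to 24.6%. Peaks with at least the median fold left 1 H4 promoter, 2 in each of the clusters H2BC11 to H2AC12 and H2BC13 to H2BC17, and 4 other histone genes, against 25.6% of all promoters. Counting only the 1000 bp upstream left 2 H3 promoters and 5 in H2AC1 to H4C8, against 32.4% of all promoters. Overlapping windows counted as 1 stretch gave 17 stretches with a peak. Without repeated 150-mers the larger chr1 cluster kept 3 promoters. With CpGs counted over 500 bp on either side, the sixth of the 10 classes held 4 histone promoters with 67 to 75 CpGs and 100% of them had a peak (52.4% of all promoters), in place of 73.3%. In the classes before it, 7 of 15 (37.3% of all promoters) and 10 of 32 (22.7% of all promoters) had a peak. The stricter island criteria left 26 promoters with an island. Each of these alternatives by its construction counts fewer peaks, bases, genes or islands, except the CpG window, for which the cause was not tested. No paired analysis was possible because each condition has 1 library and 1 list of peaks was used. Depth limits these results, with summits of 16 fragments in the median, and peaks with fewer fragments than the caller needed could not be seen.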
